A study of Rattus norvegicus with 12 samples.

Results

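Transcripts of 5 antigen presentation genes were followed in coronary arterioles of female Fischer-344 rats: Cd74 (ENSRNOG00000018735), RT1-Da (ENSRNOG00000032844), RT1-Ba (ENSRNOG00000000451), RT1-Bb (ENSRNOG00000032708) and B2m (ENSRNOG00000017123). They were taken by Ensembl gene ID from a table of 24600 gene IDs, which held all 5, and all 5 passed the filter on low counts that left 12496 genes. The table holds IDs without symbols, so the pairing of these 5 symbols with their IDs was given with the gene set and was not checked in the table. Polyadenylated RNA was sequenced in 12 libraries from arterioles under 150 µm in diameter, taken from branches of the left anterior descending artery at the apex of the heart. The groups were young control rats aged 3 months without treatment (4 libraries), old control rats aged 24 months without treatment (4 libraries), and old SVF-treated rats aged 24 months (4 libraries). The last group had received a tail vein injection of 10000000 adipose-derived stromal vascular fraction (SVF) cells, the mixed non-adipocyte cells of fat tissue, at 23 months of age and 4 weeks before the vessels were taken. Each RNA sample pooled at least 5 microvessels within a group, so p-values measure the spread between RNA samples, which may be partly technical.

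MHC class II molecules are pairs of an alpha and a beta chain that show peptides from engulfed material to CD4+ T cells. In the rat, RT1-Da encodes the alpha chain of RT1-D, the counterpart of human HLA-DR, and RT1-Ba and RT1-Bb encode the alpha and beta chains of RT1-B, the counterpart of HLA-DQ. Cd74 encodes the invariant chain, which fills the peptide groove of new class II pairs and carries them to endosomes. B2m encodes beta-2-microglobulin, the light chain of class I molecules, which nearly all nucleated cells carry. Class II genes are most active in macrophages, dendritic cells and B cells, and interferon gamma can induce them in vascular endothelium through the coactivator Ciita, which acts at a conserved set of promoter elements, among them the X and Y boxes. Symbols could be paired with none of the other IDs, so Ciita, interferon response genes and markers of immune, endothelial and muscle cells were not analysed here.

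The class II genes varied together across libraries, as given further on, and whether promoter motifs had a part in that was not tested. The upstream sequences of the 5 genes are shown as a description. They are the 200 bases before the RefSeq transcription start in build GRCr8, on the gene's strand, and capitals mark motif matches. The stretches lie at chr18:56527006-56527205 (+ strand) for Cd74, chr20:4515215-4515414 (+ strand) for RT1-Da, chr20:4576857-4577056 (+ strand) for RT1-Ba, chr20:4604119-4604318 (- strand) for RT1-Bb and chr3:129549130-129549329 (+ strand) for B2m.
Cd74: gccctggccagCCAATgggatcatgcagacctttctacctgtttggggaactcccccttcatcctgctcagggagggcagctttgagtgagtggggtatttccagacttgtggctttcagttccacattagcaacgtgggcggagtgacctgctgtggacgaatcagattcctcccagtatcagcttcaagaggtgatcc
RT1-Da: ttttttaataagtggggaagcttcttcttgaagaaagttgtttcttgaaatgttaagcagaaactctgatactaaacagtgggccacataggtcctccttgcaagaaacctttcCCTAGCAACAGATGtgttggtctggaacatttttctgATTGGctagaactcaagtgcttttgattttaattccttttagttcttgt
RT1-Ba: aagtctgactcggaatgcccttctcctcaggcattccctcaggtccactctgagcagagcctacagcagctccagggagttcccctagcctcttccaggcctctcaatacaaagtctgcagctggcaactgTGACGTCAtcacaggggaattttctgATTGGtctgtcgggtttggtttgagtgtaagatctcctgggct
RT1-Bb: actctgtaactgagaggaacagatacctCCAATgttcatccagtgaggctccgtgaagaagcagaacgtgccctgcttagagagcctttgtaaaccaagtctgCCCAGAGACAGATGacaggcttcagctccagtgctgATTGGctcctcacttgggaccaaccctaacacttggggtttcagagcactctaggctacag
B2m: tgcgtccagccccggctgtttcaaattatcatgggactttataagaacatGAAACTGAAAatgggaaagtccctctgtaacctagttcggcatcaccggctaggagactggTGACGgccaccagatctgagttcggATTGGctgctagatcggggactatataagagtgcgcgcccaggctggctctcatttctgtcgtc

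The motifs were searched on both strands as CCNAGNNACAGATG for the X1 box (the letters shared by RT1-Da and RT1-Bb, with N where they differ), TGACG for the core of the X2 box, ATTGG for the Y box (bound by NF-Y), and GAAANNGAAA for the interferon-stimulated response element. They were chosen with these 5 sequences in view, and no match overlapped a match of another motif. The X1 letters stood in RT1-Da as CCTAGCAACAGATG and in RT1-Bb as CCCAGAGACAGATG, 23 and 22 bases before an ATTGG. Of 33469 RefSeq windows of the same length, 10 held these X1 letters, or 0.0299%, those of RT1-Da and RT1-Bb included. The pattern was taken from RT1-Da and RT1-Bb, so their matches were fixed in advance and this share is no test. The lack of these letters in Cd74, RT1-Ba and B2m does not show that they lack an X1 box. RT1-Ba held TGACG on both strands in 1 palindrome, with the forward match starting 69 bases before the start site and an ATTGG starting 43 bases before it. All 5 stretches held ATTGG or its reverse complement CCAAT, against 29.2% of all windows. In RT1-Da, RT1-Ba, RT1-Bb and B2m an ATTGG started 43 to 64 bases before the start site. Cd74 held only a CCAAT starting 189 bases before it and none of the other motifs. TGACG was in RT1-Ba and B2m and in 15.9% of all windows. The response element letters were in B2m, as GAAACTGAAA starting 150 bases before the start, and in 2.74% of all windows. The reference strain of this build is Brown Norway, and class II genes are polymorphic between rat strains, so the Fischer-344 sequence may differ.

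The libraries held 4068021 to 10821485 counts. The lowest counts per library were 1096 for Cd74, 131 for RT1-Da, 146 for RT1-Ba, 166 for RT1-Bb and 11099 for B2m, so counting error alone was at most 8.74% of a value. Levels are given in CPM, that is, relative to the library total after TMM scaling. They are not per length and are compared between libraries, not between genes. Class II genes have close paralogs in the MHC with which reads may have been shared, so each value is that of the ID as counted. Over all genes, old SVF-treated replicate 2 and old control replicate 4 stood apart from the other libraries in earlier results of these data, and the values without both are given beside the comparisons.

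Cd74 was present in every library. In young controls it stood at 351, 325, 236 and 281 CPM in replicates 1 to 4, with a mean of 298 ± 50.8 CPM (SD, n = 4). In old controls it stood at 248, 331, 406 and 395 CPM, with a mean of 345 ± 72.8 CPM. In old SVF-treated rats it stood at 675, 260, 459 and 372 CPM, with a mean of 442 ± 175 CPM. The 3 groups overlapped, and old SVF-treated replicate 1 was the highest of the 12 libraries.

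RT1-Da, the RT1-D alpha chain, was at 49.1, 41.4, 24.9 and 33.5 CPM in young controls, a mean of 37.2 ± 10.4 CPM (SD, n = 4). Old controls held 32.7, 32.3, 68.5 and 59.1 CPM, a mean of 48.2 ± 18.5 CPM. Old SVF-treated rats held 122, 31.8, 58.8 and 29.8 CPM, a mean of 60.6 ± 43.1 CPM. Each old group thus had libraries inside the young range and libraries above it, and the SD in SVF-treated rats was 71.1% of the mean.

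RT1-Ba, the RT1-B alpha chain, was at 57.8, 27.5, 39.8 and 47.4 CPM in young controls, a mean of 43.1 ± 12.8 CPM (SD, n = 4). It was at 38.0, 38.7, 59.4 and 49.0 CPM in old controls, a mean of 46.3 ± 10.1 CPM. It was at 114, 42.0, 62.2 and 59.0 CPM in old SVF-treated rats, a mean of 69.2 ± 30.9 CPM. The groups overlapped, with 3 of the 4 SVF-treated libraries above the old control median. RT1-Bb, the partner beta chain, was at 56.0, 31.2, 32.4 and 58.9 CPM in young controls, a mean of 44.6 ± 14.9 CPM (SD, n = 4). It was at 35.5, 56.5, 66.5 and 70.1 CPM in old controls, a mean of 57.1 ± 15.5 CPM. It was at 109, 38.4, 65.5 and 60.0 CPM in old SVF-treated rats, a mean of 68.2 ± 29.5 CPM. The groups overlapped here too, and the lowest libraries were young control replicates 2 and 3 and old control replicate 1.

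B2m had the least spread. It stood at 3097, 3557, 3718 and 2842 CPM in young controls, a mean of 3304 ± 405 CPM (SD, n = 4). Old controls held 3449, 4213, 5174 and 4757 CPM, a mean of 4398 ± 745 CPM. Old SVF-treated rats held 5465, 4273, 4388 and 4703 CPM, a mean of 4707 ± 536 CPM. All 4 SVF-treated libraries lay above all 4 young libraries. Among the old controls, replicate 1 lay inside the young range and the other 3 above it.

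**Figure D1:**
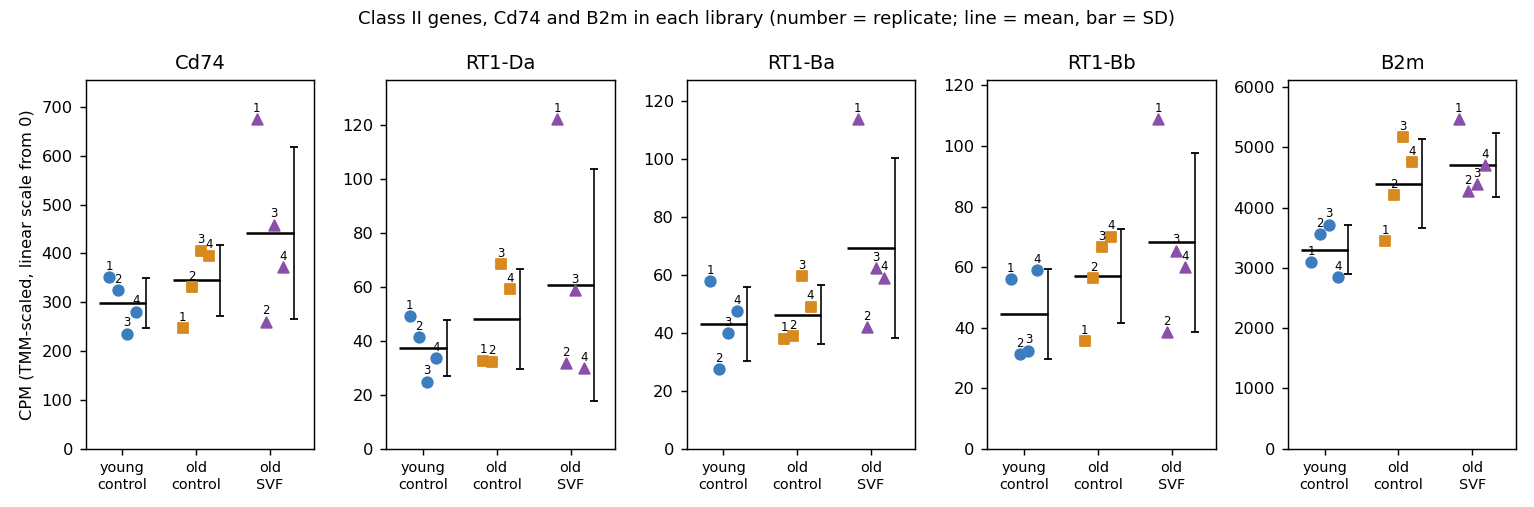
CPM of each gene by group on a linear axis from 0, with 1 point per library labelled by replicate number, a line at the mean and a bar of 1 SD (n = 4). Old SVF-treated replicate 1 is the highest point in all 5 panels, and only for B2m do the SVF-treated and young points not overlap.

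Age was examined in untreated rats, old against young. None of the 5 genes passed the quasi-likelihood test of edgeR at an adjusted p of 0.05 over 12496 genes, which 0.04% of all tested genes passed. DESeq2 and limma voom also called 0 of the 5, where they called 0.24% and 0.136% of tested genes. At an unadjusted p under 0.05 there was 1 of the 5, B2m, beside 5.34% of all tested genes. B2m was 1.33-fold higher in the old, or 0.41 on the log2 scale (SE 0.17; 95% interval 0.06 to 0.76), with an adjusted p of 0.816 by edgeR. Cd74 had a log2 fold change of 0.21 (95% interval -0.26 to 0.68), RT1-Da 0.37 (-0.46 to 1.20), RT1-Ba 0.10 (-0.45 to 0.65) and RT1-Bb 0.36 (-0.23 to 0.95), each with an edgeR adjusted p of 1. All 5 estimates were above 0, as were 48.7% of those over all tested genes, and their median was 0.36 against -0.00907 over all tested genes. With the sign ignored, the median over all tested genes was 0.21, near the Cd74 value and above that of RT1-Ba. The values of RT1-Da, RT1-Bb and B2m were above it. The members varied together across libraries, as given further on, so counts of members in any comparison are not counts of separate observations. The libraries of the groups overlapped for all 5, whereas 3.5% of tested genes had groups that did not overlap. The RT1-Ba estimate changed sign when 1 of 2 libraries was dropped, to -0.062 without young control replicate 2 and to -0.041 when old control replicate 3 was left out. Without single libraries Cd74 ran from 0.11 (young control replicate 3 left out) to 0.35 (old control replicate 1 left out). RT1-Da was as low as 0.15 when old control replicate 3 was dropped, and RT1-Bb as low as 0.22 when young control replicate 2 was, while B2m stayed between 0.33 and 0.52. Without old SVF-treated replicate 2 and old control replicate 4 together, the values were 0.14 for Cd74, 0.26 for RT1-Da, 0.074 for RT1-Ba, 0.25 for RT1-Bb and 0.37 for B2m. Old control replicate 4 lay above its group mean for all 5 genes, so leaving it out lowers these values.

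The SVF cell injection was examined at 24 months of age, treated against untreated. Of the 5 genes 0 were called, and so were 0% of all tested genes by edgeR, by DESeq2 and by limma voom. At an unadjusted p under 0.05 there was 1 of the 5, RT1-Ba, beside 2.94% of all tested genes. RT1-Ba was 1.5-fold higher after treatment, or 0.58 on the log2 scale (SE 0.26; 95% interval 0.04 to 1.13), with an adjusted p of 0.999 by edgeR. Its partner chain RT1-Bb had a log2 fold change of 0.26 (95% interval -0.33 to 0.84), Cd74 0.36 (-0.11 to 0.82), RT1-Da 0.34 (-0.48 to 1.16) and B2m 0.10 (-0.25 to 0.45), each with an edgeR adjusted p of 0.999. All 5 were above 0, beside 49.5% of all tested genes, and the groups overlapped for all 5, whereas 2.42% of tested genes did not overlap. Old SVF-treated replicate 1 carried much of these estimates. Without that library the log2 fold changes were 0.076 for Cd74, -0.27 for RT1-Da, 0.23 for RT1-Ba, -0.065 for RT1-Bb and 0.017 for B2m. Without old control replicate 1 the B2m value was -0.003 and that of RT1-Bb 0.086. Without old SVF-treated replicate 2 and old control replicate 4 together, the values were 0.62 for Cd74, 0.66 for RT1-Da, 0.79 for RT1-Ba, 0.57 for RT1-Bb and 0.18 for B2m, and none was called. For all 5 genes the SVF-treated library left out lay below its group mean and the control above its own. Leaving both out therefore raises each estimate.

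Old SVF-treated rats were also set against young controls, groups that differ in both age and treatment. Both comparisons with young controls use the same 4 young libraries, and this comparison shares its SVF-treated libraries with the one above. No member was called by edgeR, where 0.064% of all tested genes were, and 4 of the 5 had an unadjusted p under 0.05, beside 7.11% of all tested genes. B2m was 1.42-fold higher in SVF-treated than in young rats, or 0.51 on the log2 scale (SE 0.17; 95% interval 0.16 to 0.86), with an adjusted p of 0.488 by edgeR. DESeq2 called B2m (log2 fold change 0.52, adjusted p = 0.0393) among 0.456% of tested genes, and limma voom called none of the 5, where it called 0.264% of tested genes. B2m was the single member whose groups did not overlap, as in 4.65% of tested genes. RT1-Ba had a log2 fold change of 0.69 (95% interval 0.14 to 1.23, edgeR adjusted p = 0.591) and Cd74 one of 0.57 (0.10 to 1.03, adjusted p = 0.591). RT1-Bb had a log2 fold change of 0.62 (95% interval 0.03 to 1.21, edgeR adjusted p = 0.688) and RT1-Da one of 0.71 (-0.12 to 1.54, adjusted p = 0.76). All 5 were above 0, beside 49.2% of all tested genes. Without old SVF-treated replicate 1 the values were 0.29 for Cd74, 0.10 for RT1-Da, 0.33 for RT1-Ba, 0.29 for RT1-Bb and 0.43 for B2m. The drop was larger for Cd74 and the 3 chain genes than for B2m. Without old SVF-treated replicate 2 and old control replicate 4, the values were 0.76 for Cd74, 0.92 for RT1-Da, 0.87 for RT1-Ba, 0.82 for RT1-Bb and 0.56 for B2m. The SVF-treated library left out lay below its group mean for all 5 genes, so leaving it out raises these values.

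**Figure D2:**
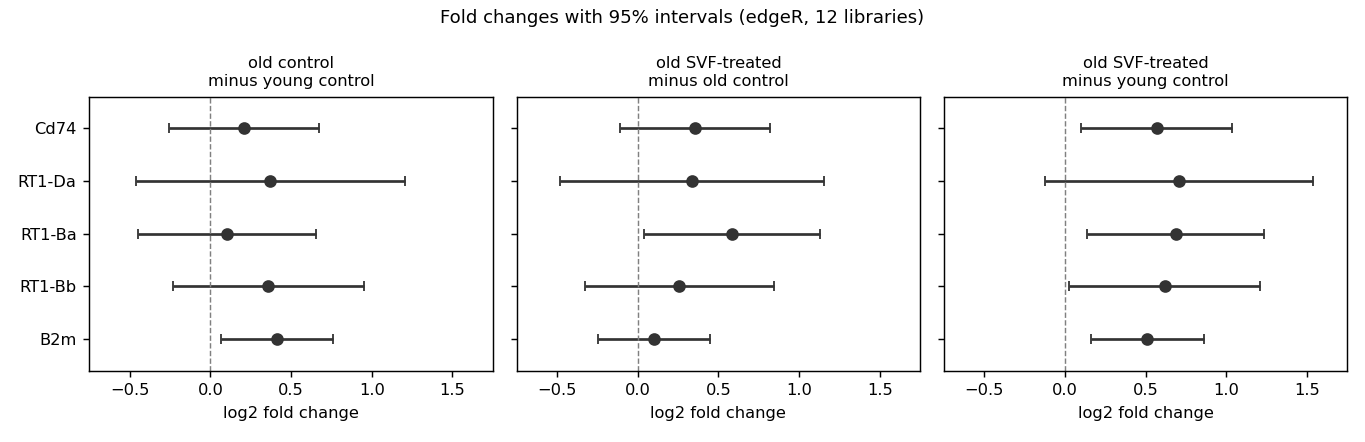
Log2 fold change of each gene (horizontal axis) with its 95% interval from the edgeR fit to 12 libraries, 1 panel per comparison, and a dashed line at 0. All 15 points lie to the right of 0, and the intervals of RT1-Da are the widest in each panel.

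The order of the group means was the same for the 5 genes, with young control lowest, old control between and old SVF-treated highest. The share of all tested genes with this order was not computed. Single libraries decided some steps. Without old SVF-treated replicate 1 the log2 fold change of SVF-treated against old controls was -0.27 for RT1-Da and -0.065 for RT1-Bb. For B2m it was -0.003 without old control replicate 1. The age step of RT1-Ba was -0.062 without young control replicate 2. No difference between neighbouring groups in that order passed the edgeR test after adjustment over all genes, although the 95% intervals of B2m in old against young controls and of RT1-Ba in SVF-treated against old controls lay above 0. In pooled vessels, more cells of a type and more RNA per cell cannot be told apart.

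Old SVF-treated replicate 1 stood above the other 11 libraries for all 5 genes, whereas it was the highest library for 5.39% of all tested genes. The genes varied together, so these are not 5 separate observations, and the library was singled out after its values were seen. Cd74 in that library was 2.04-fold the median of the other 11 libraries, RT1-Da 3.64-fold, RT1-Ba 2.4-fold, RT1-Bb 1.93-fold and B2m 1.3-fold. The B2m value there was only 1.06-fold the next highest library, and the class II values were 1.47-fold (Cd74) to 1.83-fold (RT1-Ba) the next highest. This library was also the deepest of the 12, with 10821485 counts, and the part of depth in its values was not tested. Its share of cell types could not be read, since no cell type marker was paired with an ID.

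Over the 12 libraries the class II genes spread more than most genes of like abundance. RT1-Da had a coefficient of variation (SD over mean) of 55.5%, higher than that of 99.6% of 4376 genes within 2-fold of its mean CPM, whose median was 21.2%. RT1-Ba had 41.5% and RT1-Bb 38.0%, against medians of 20.6% and 20.2% for their like genes. Cd74 had 33.2% against a median of 15.3%. B2m, at 19.8%, was close to the median of 20.0% for its 41 like genes. Old SVF-treated replicate 1 carried much of this spread. Without it RT1-Da had 34.7%, RT1-Bb 28.2%, RT1-Ba 23.7% and Cd74 21.6%, against medians of 22.5%, 21.1%, 21.7% and 15.5% for their like genes, and B2m had 18.4%. RT1-Ba then exceeded 60.8% of its like genes and RT1-Da 92.5%. From the lowest to the highest library Cd74 ranged 2.86-fold, RT1-Da 4.9-fold, RT1-Ba 4.14-fold, RT1-Bb 3.49-fold and B2m 1.92-fold.

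The class II genes and Cd74 varied together across libraries. All 10 pairs of the 5 genes were tested on log2 CPM over the 12 libraries (permutation test with 100000 resamples, 2-sided, Benjamini-Hochberg over 10 pairs), and 7 passed an adjusted p of 0.05. Cd74 and RT1-Da had a Pearson r of 0.90 (permutation p = 0.00013, adjusted 0.00065) and a Spearman rho of 0.78 (p = 0.00442, adjusted 0.011). RT1-Ba and RT1-Bb, whose products form 1 heterodimer, had r = 0.88 (permutation p = 0.00013, adjusted 0.00065) and rho = 0.84 (p = 0.00107, adjusted 0.00407). Cd74 and RT1-Bb had r = 0.87 (permutation p = 0.0003, adjusted 0.001) and rho = 0.86 (p = 0.00064, adjusted 0.00407). The alpha chain RT1-Ba followed Cd74 with r = 0.81 (permutation p = 0.00225, adjusted 0.00562) and rho = 0.83 (p = 0.00122, adjusted 0.00407).

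Between the RT1-D and RT1-B chains r was lower. RT1-Da had r = 0.77 with RT1-Bb (permutation p = 0.00352, adjusted 0.00704; rho = 0.67, p = 0.0199, adjusted 0.0285). With RT1-Ba it had r = 0.75 (permutation p = 0.00665, adjusted 0.0111), where rho was 0.57 (p = 0.0555, adjusted 0.0617). B2m followed Cd74 with r = 0.67 (permutation p = 0.0164, adjusted 0.0235; rho = 0.72, p = 0.0105, adjusted 0.0175). With RT1-Da, RT1-Ba and RT1-Bb, B2m had r of 0.56, 0.54 and 0.55, each with a permutation p adjusted to 0.0651. The ranks gave B2m a rho of 0.44 with RT1-Da (permutation p = 0.153, adjusted 0.153), 0.64 with RT1-Ba (p = 0.0295, adjusted 0.0368) and 0.73 with RT1-Bb (p = 0.00884, adjusted 0.0175).

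The relations were also measured within groups. With each value taken as a deviation from its group mean and libraries exchanged only within groups, r was 0.91 for Cd74 and RT1-Da, 0.89 for RT1-Ba and RT1-Bb, 0.84 for Cd74 and RT1-Bb and 0.75 for Cd74 and RT1-Ba. The permutation p-values, adjusted over the 10 pairs, were 0.0134, 0.0137, 0.0222 and 0.0403. Within groups, 6 pairs passed, and Cd74 with B2m (r = 0.58, adjusted permutation p = 0.0765) no longer did. Without the pair of libraries farthest from the median of the first gene, which always included old SVF-treated replicate 1, r fell to 0.74 for Cd74 and RT1-Da, 0.73 for RT1-Ba and RT1-Bb, 0.71 for Cd74 and RT1-Bb and 0.60 for Cd74 and RT1-Ba. RT1-Da then had r = 0.36 with RT1-Ba and 0.55 with RT1-Bb, and B2m had 0.57 with Cd74, 0.16 with RT1-Da, 0.29 with RT1-Ba and 0.35 with RT1-Bb.

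Without old SVF-treated replicate 1 alone, 3 of the 10 pairs passed: Cd74 with RT1-Da (r = 0.80), Cd74 with RT1-Bb (r = 0.78) and RT1-Ba with RT1-Bb (r = 0.80). Cd74 with RT1-Ba (r = 0.61, adjusted permutation p = 0.108) and RT1-Da with RT1-Ba (0.47, adjusted 0.208) then no longer passed. Nor did RT1-Da with RT1-Bb (0.60, adjusted 0.108) or Cd74 with B2m (0.54, adjusted 0.141). By ranks over all 12 libraries, permutation p-values passed for Cd74 with RT1-Ba (rho = 0.83, adjusted 0.00407) and Cd74 with B2m (0.72, adjusted 0.0175). They also passed for RT1-Da with RT1-Bb (0.67, adjusted 0.0285), but not for RT1-Da with RT1-Ba (0.57, adjusted 0.0617). Without young control replicate 1, all 10 pairs passed.

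**Figure D3:**
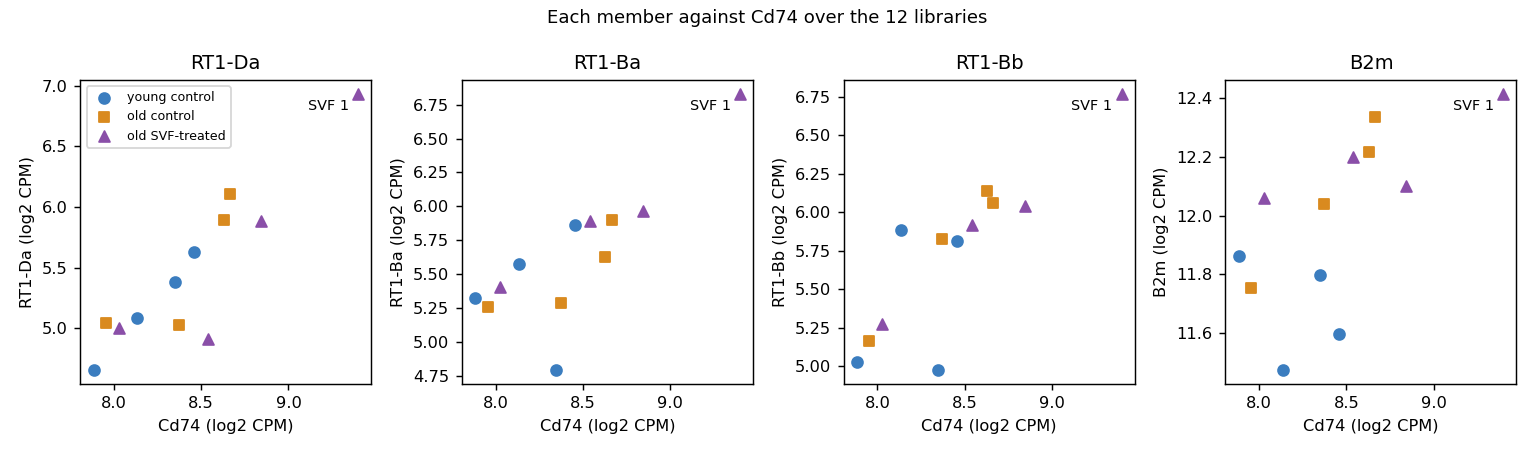
Log2 CPM of RT1-Da, RT1-Ba, RT1-Bb and B2m (vertical axes) against Cd74 (horizontal axis), with 1 point per library coloured by group and old SVF-treated replicate 1 marked. The 3 chain genes climb with Cd74 over the 12 libraries, and the marked library lies alone at the upper right of those panels.

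Among 11592 genes with a mean of at least 2 CPM, RT1-Da had the highest r of all with Cd74. RT1-Bb ranked 5 and RT1-Ba ranked 6, and B2m ranked 55. The places between RT1-Da and RT1-Bb were held by genes outside the set (r from 0.868 to 0.887), each highest in old SVF-treated replicate 1. The median r of all 11592 genes with Cd74 was 0.02, and the highest 5% of them began at 0.46. These ranks are a description, since every gene shares the same libraries. Within groups, RT1-Da again ranked 1, RT1-Bb 10, RT1-Ba 57 and B2m 454. Without old SVF-treated replicate 1, RT1-Da ranked 7, RT1-Bb 12, RT1-Ba 192 and B2m 366. RT1-Ba was thus the class II chain whose likeness to Cd74 depended most on that library. With single libraries left out, its r with Cd74 ran from 0.607 (without that library) to 0.915 (without young control replicate 2).

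**Figure D4:**
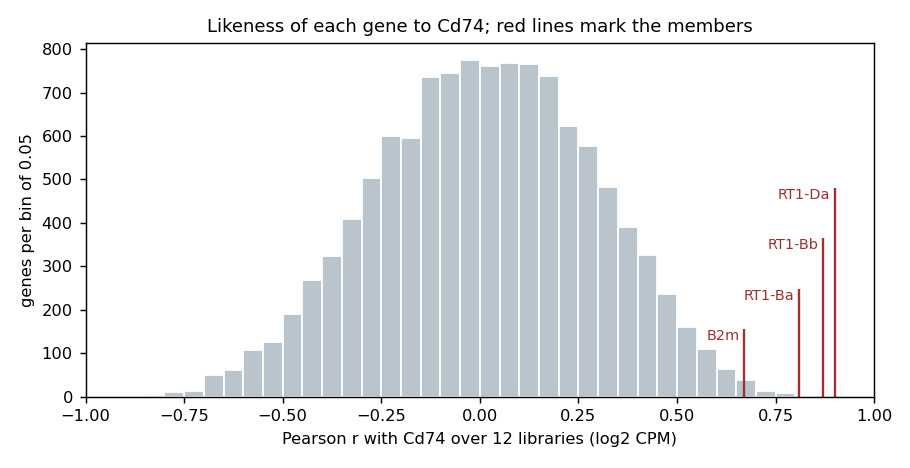
Number of genes (vertical axis) per bin of Pearson r with Cd74 over 12 libraries (horizontal axis), for genes with a mean of at least 2 CPM other than the 5 members. Red lines, whose heights carry no value, mark RT1-Da at 0.90, RT1-Bb at 0.87, RT1-Ba at 0.81 and B2m at 0.67, all beyond the point of 0.46 where the highest 5% begin.

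Taken from the side of B2m, its r with Cd74 ranked 231 among the same genes, and its r with RT1-Da, RT1-Bb and RT1-Ba ranked 563, 595 and 664. The genes most like it were ENSRNOG00000050210 (r = 0.943, mean 285 CPM, from 176 to 409 CPM) and ENSRNOG00000024845 (r = 0.919, mean 65.5 CPM, from 53.7 to 78.0 CPM), over 12 libraries. Both were highest in old control replicate 3, the library in which B2m was second to old SVF-treated replicate 1. These were also the highest r values of any gene outside the set with either Cd74 or B2m.

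Ratios of counts between members show how evenly they moved, since depth cancels within a library. The ratio of RT1-Ba to RT1-Bb averaged 0.986 ± 0.187 for young controls, 0.837 ± 0.182 for old controls and 1.02 ± 0.0639 after SVF treatment (SD, n = 4). In SVF-treated rats it was 1.04, 1.09, 0.95 and 0.983 in replicates 1 to 4, a 1.15-fold range, while RT1-Ba CPM ranged 2.7-fold and RT1-Bb CPM 2.83-fold in the same libraries. In old controls it ranged 1.56-fold, from 0.686 in replicate 2 to 1.07 in replicate 1, and in young controls 1.53-fold. The ratios were not tested between groups, and the groups overlapped.

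The RT1-D chain varied against Cd74 most among SVF-treated libraries. Its ratio to Cd74 averaged 0.123 ± 0.0143 for young controls, 0.137 ± 0.0303 for old controls and 0.128 ± 0.0415 after SVF treatment (SD, n = 4). It was highest in old SVF-treated replicate 1, at 0.181, and lowest in old SVF-treated replicate 4, at 0.080, so the group with the highest Cd74 held both ends. RT1-Ba to Cd74 was steadier in the old groups, at 0.117 to 0.153 in old controls and 0.135 to 0.168 in SVF-treated rats. In young controls 3 libraries lay between 0.1645 and 0.1688 and replicate 2 at 0.0843. B2m to Cd74 was 12.03 to 13.92 in the 4 old controls. It was 8.82 to 15.8 in young controls and 8.1 to 16.4 in SVF-treated rats, with its lowest value in old SVF-treated replicate 1 and its highest in old SVF-treated replicate 2.

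**Figure D5:**
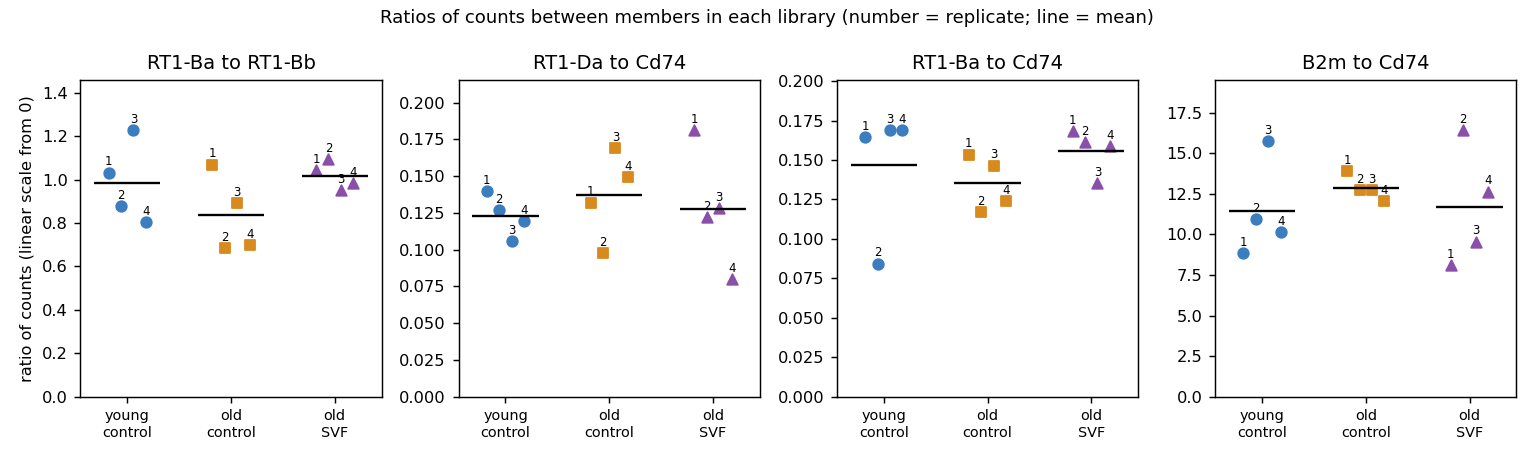
Ratio of counts between pairs of members in each library, on linear axes from 0, with points labelled by replicate number and a line at the group mean. The RT1-Ba to RT1-Bb points of SVF-treated rats lie between 0.95 and 1.09, and the B2m to Cd74 points of old controls between 12.03 and 13.92.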

How the data were processed

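The authors deposited raw counts per Ensembl gene ID, 1 column per library, made from polyadenylated RNA of pooled arterioles (12 libraries, 4 per group). The submitters' processing notes name FastQC 0.10.1, the build rn6 and HTSeq 0.10.0. Aligner, annotation release and strand setting: not given in the sources used here. Class II paralogs and overlapping genes may share reads, and reads with Fischer-344 alleles may have mapped less well. No column was left out.

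The tests used edgeR 4.0.16 under R 4.3.3: filterByExpr by group (minimum count 10, minimum total 15), TMM, and 1 robust quasi-likelihood fit to 12 libraries with group as the only term. P-values were adjusted by Benjamini-Hochberg over 12496 genes, and log2 CPM used a prior count of 2. The tests were checked on simulated data. Named were the 5 members and the 2 IDs most alike, by Pearson r with Cd74 or B2m. The pathway and marker lists were not run because 0 IDs matched the RefSeq gene list. Upstream sequences and start sites came from RefSeq (GRCr8), where all 5 symbols matched.

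Alternatives were DESeq2 1.42.0, limma 3.58.1 voom with sample quality weights, RLE factors, library totals alone, no filter, a mean of at least 5 CPM, only the 2 groups compared, a replicate block, a prior count of 0.5, deviations from group means, and leaving out libraries. The ranks by likeness within groups and without old SVF-treated replicate 1 were added after seeing the data. The members and lists were chosen with earlier results of these data known.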

Additional observations from a re-analysis of the deposited data

Results flagged for a closer look

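The ratio of RT1-Ba to Cd74 counts was 0.0843 in young control replicate 2 and 0.1645 to 0.1688 in replicates 1, 3 and 4. The gap made up 0.949 of the range of the 4 values, past Dixon's limit at the 95% level. Chance passes this limit in about 1 of 20 groups, and 27 sets of values were examined. RT1-Ba itself stood at 27.5 CPM in that library, the lowest of the 12, and RT1-Bb was also at its lowest there, at 31.2 CPM, while Cd74 was at 325 CPM.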

How the results depend on the processing

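Of 315 fold changes of the 5 genes under other settings, 309 kept their direction and their side of the threshold. This tally overstates stability, since some settings left out a library of the group outside the comparison and could hardly move an estimate. Cd74 in old against young controls, for instance, stayed at 0.21 without old SVF-treated replicate 1. No member was called in the main fit, so keeping its side meant staying uncalled. B2m in SVF-treated against young rats was called by DESeq2 alone (0.52 on the log2 scale, adjusted p = 0.0393), and its edgeR values without single libraries ran from 0.43 to 0.57. The 5 reversals came from leaving out single libraries: RT1-Ba in old against young controls ran from -0.062 (without young control replicate 2; -0.041 without old control replicate 3) to 0.28. In SVF-treated rats against old controls RT1-Da ran from -0.27 to 0.56 and RT1-Bb from -0.065 to 0.45 (both lowest without old SVF-treated replicate 1), and B2m from -0.003 (without old control replicate 1) to 0.18.

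Over all genes, the 5 called in old against young controls became 30 by DESeq2 and 17 by limma voom, and 0 to 12 without single libraries. The 8 called in SVF-treated against young rats became 57 by DESeq2, 33 by limma voom, 15 with no filter, 3 with only the 2 groups compared, 32 without the 2 libraries that stand apart, and 0 to 22 without single libraries. The causes were not tested. With the replicate number as a block there were 2, and no member was called in any comparison. With that block RT1-Da in SVF-treated rats against old controls was 0.15, beside 0.34 in the main fit. Same-numbered libraries deviated together little (r from -0.006 to 0.09 across genes), most for replicate 1 (0.05, 0.09 and 0.084 in the 3 comparisons). Whether same-numbered samples share more than a number was not tested. The number of correlated pairs, 7, ran from 3 (without old SVF-treated replicate 1) to 10 (without young control replicate 1) and was 6 within groups. The upper 95% bounds for Cd74 and the class II chains lay between 1.57-fold and 2.91-fold in the 3 comparisons, which is the precision that 4 pooled libraries a group allowed.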
